A study of Mus musculus with 8 samples.

Results

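The uptake and oxidation of fatty acids were followed here through 34 genes among the 49584 features of the deposited count table. They were taken from a list of names that was chosen with earlier results of these data known. The genes were matched by name to the authors' deposited table and counted by gene identifier in the 8 raw count files. All 34 were found and tested. The list holds 4 genes of uptake and binding, 5 of activation to acyl-CoA, 4 of the carnitine shuttle, 2 of malonyl-CoA control, and 19 of the oxidation spiral with its electron carriers. These 19 are mainly mitochondrial, but they include Acaa1a, the thiolase of peroxisomes. The series asked what TEFM, an elongation factor of the mitochondrial RNA polymerase, does for mitochondrial gene expression. RNA came from crude mitochondria of hearts of 4 control and 4 knockout mice, each mouse a separate sample. Both groups carry the Tefm allele written L/L, in which loxP sites flank an exon. Knockouts are L/L, cre, given as Tefm -/- in the genotype field, with cre under the promoter of muscle creatine kinase, a promoter of striated muscle, so the other cell types of the heart are not targeted. Controls are L/L without cre and are given as Tefm +/+ in the genotype field. The sources used here give no age, sex or strain of the animals.

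Long-chain fatty acids are the main fuel of the adult heart. They enter the cell with the help of membrane proteins, are held by cytosolic binding proteins, are activated to acyl-CoA by acyl-CoA synthetases, and cross the inner mitochondrial membrane as carnitine esters. Inside the matrix each turn of the oxidation spiral removes a short unit as acetyl-CoA by dehydrogenation, hydration, a further dehydrogenation and thiolysis, and passes electrons to the respiratory chain through the electron transfer flavoprotein. Malonyl-CoA, made by acetyl-CoA carboxylase and removed by malonyl-CoA decarboxylase, inhibits carnitine palmitoyltransferase 1, the entry step of the shuttle.

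Library totals ran from 21108165 to 27403415 counts, of which nuclear genes held 6825329 to 7596951 in controls and 10331611 to 13204546 in knockouts. Counts of the mitochondrial genome made up 72.3% to 74% of each control library and 38.7% to 59.3% of each knockout library. Levels are given as CPM, counts scaled to a common library size after adjustment by the trimmed mean of M-values (TMM), which sets the median gene at a log2 fold change of -0.01. With library totals as the only scaling that median moved to 0.97, so every change below is relative to the typical nuclear gene of these libraries and not to the mitochondrial RNA beside it. Knockout replicate 1 stood apart from the other knockouts, with 59.3% of its counts from the mitochondrial genome against 38.7% to 44.2%. Its member levels deviated from the control mean by a median of -0.07 on the log2 scale, against -0.49 to -0.52 in knockout replicates 2 to 4. For most of the genes that fell it lay nearer the controls than the other knockouts did, but not for all members. It was the highest of the 8 libraries for Fabp3 (329 CPM), Cpt1a (53.3 CPM) and Acadl (157 CPM), the members called higher. Cd36 (405 CPM) and Hadha (341 CPM), which were not called, lay above every control in knockout replicate 1. Results are therefore also given without that library. The gene-level count of Tefm (110, 117, 106 and 144 in controls 1 to 4 and 166, 233, 230 and 245 in knockouts 1 to 4) had a log2 fold change of 0.14 (standard error, SE, 0.11, adjusted p = 0.324, edgeR). These counts cover all exons of the gene, so they do not show whether the flanked exon was lost.

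Of the 34 genes, 20 fell and 3 rose in the knockout libraries, and 11 did not pass the threshold of an adjusted p of 0.05 in edgeR's quasi-likelihood test. The genes that rose were Fabp3, the fatty acid binding protein of heart muscle, Cpt1a, the carnitine palmitoyltransferase 1 best known from liver, and Acadl, the long-chain acyl-CoA dehydrogenase. The largest falls were those of Acsl6, Acaa2, Ech1 and Cpt2, each more than 2-fold. Among all 17891 genes tested, 26.1% were called higher and 23.9% lower, against 8.82% and 58.8% of the members. The median log2 fold change of the members was -0.41. The groups did not overlap for the 3 genes that rose and for 17 of the 20 that fell, where over all genes tested 23.9% were separated upward and 21.5% downward. Without knockout replicate 1 the test called 4 members higher and 22 lower, with a median of -0.59.

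The summed level of the 34 genes was 3526 ± 29.5 CPM in controls and 2843 ± 396 CPM in knockouts (SD, n = 4 each). Knockout replicate 1 reached 3434 CPM, near the controls as a sum, though its genes lay both above and below theirs. Knockout replicates 2 to 4 held 2584, 2688 and 2668 CPM. In such bulk RNA, fewer cells of a type and less RNA per cell cannot be told apart. The libraries are also of crude mitochondria, so a nuclear transcript counted here is one that came down with that fraction, and its level in whole heart was not measured. With library totals as the only scaling 23 members were called higher and 1 lower, with a median of 0.54 against 0.97 for all genes, so the falls are falls relative to other nuclear transcripts. The authors' deposited table gave the same call as edgeR for each of the 34 genes.

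**Figure D1:**
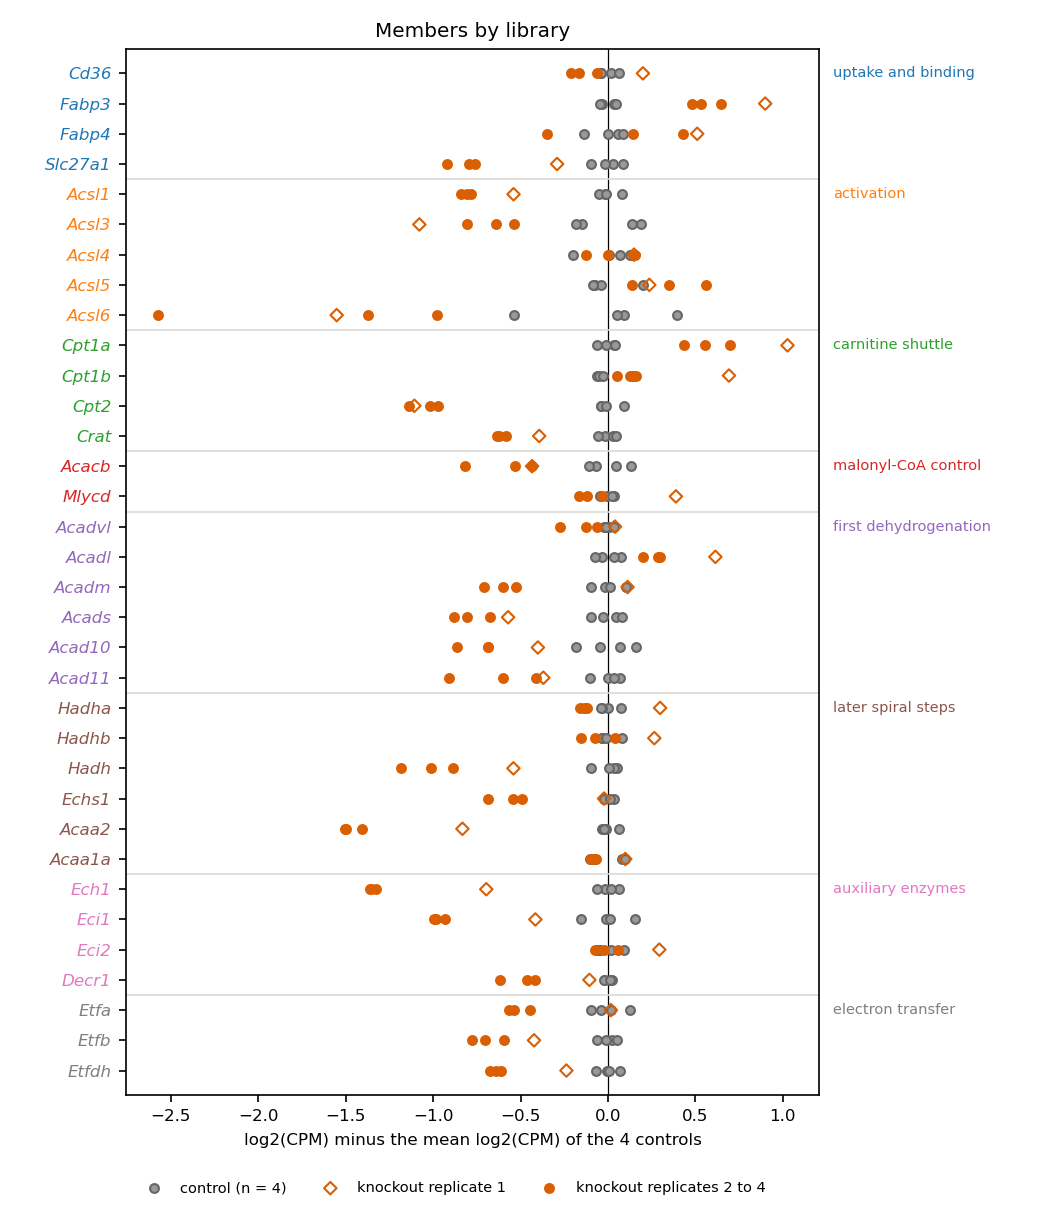
Deviation of each member's level in each library from the mean of the 4 controls, on a log2(CPM) scale, with genes grouped by role. Grey points are controls, filled orange points knockout replicates 2 to 4 and open diamonds knockout replicate 1, which lies nearer the controls than the other knockouts do for most of the genes that fell.

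Counts of called genes by role are read against the 26.1% called higher and 23.9% called lower among all genes tested. Uptake and binding, near those shares, had 1 gene higher and 1 lower of 4, activation none higher and 3 lower of 5, the carnitine shuttle 1 higher and 2 lower of 4, and the oxidation spiral with its electron carriers 1 higher and 13 lower of 19. The medians were 0.08 for uptake and binding, -0.74 for activation, -0.14 for the shuttle, -0.26 for the 2 genes of malonyl-CoA control and -0.42 for the spiral. Within the spiral the median was -0.48 for the 6 genes of the initial dehydrogenation, -0.23 for the 6 of hydration, the further dehydrogenation and thiolysis, -0.61 for the 4 auxiliary enzymes of unsaturated chains, and -0.53 for the 3 electron carriers. The ranges of the roles overlapped. Counts and medians describe the lists, and no test was made between roles.

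**Figure D2:**
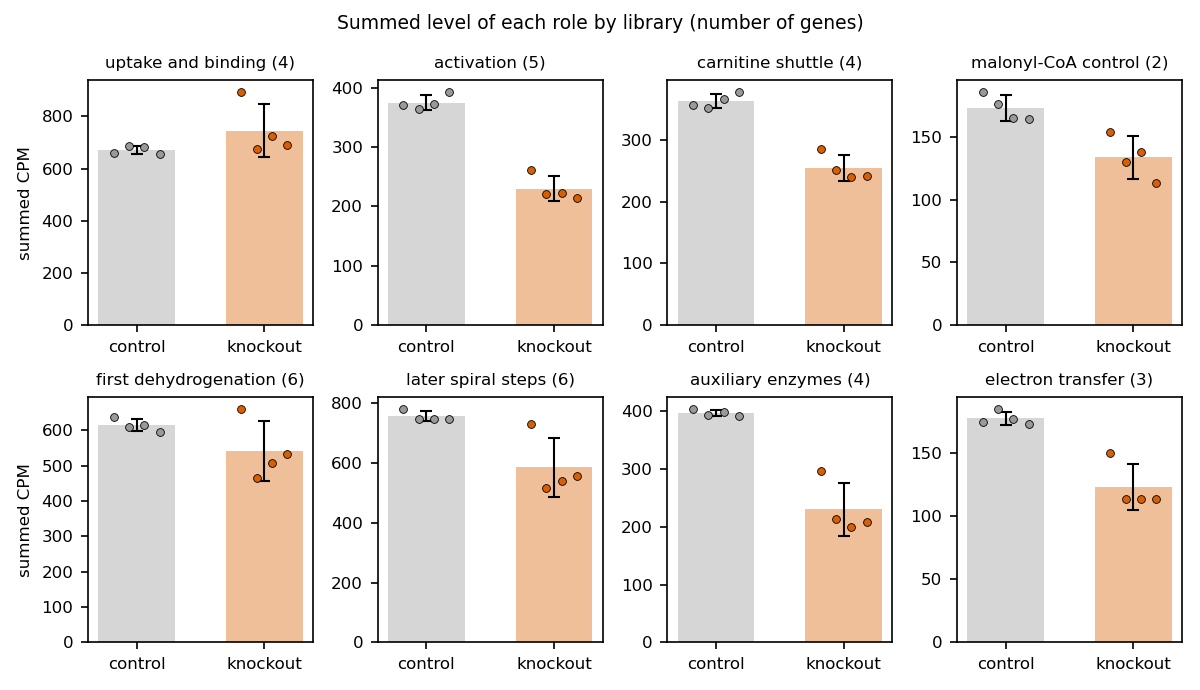
Summed CPM of each role's genes by library (points), with the mean as a bar and the SD as an error bar (n = 4 per group) and the number of genes in brackets. Uptake and binding summed to 671 ± 16.2 CPM in controls and 746 ± 102 CPM in knockouts. Of these, knockout replicate 1 held 895 CPM and knockout replicates 2 to 4 held 674, 724 and 689 CPM, against 655 to 688 CPM in controls. The auxiliary enzymes summed to 397 ± 5.34 and 230 ± 45 CPM.

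The genes of uptake and binding went different ways, with the rise of Fabp3 beside the fall of Slc27a1. Fabp3, which holds fatty acids in the cytosol of heart and muscle cells, stood at 181, 182, 172 and 171 CPM in controls 1 to 4 and at 329, 276, 246 and 255 CPM in knockouts 1 to 4. All 4 knockouts lay above all 4 controls. The log2 fold change was 0.65 with an SE of 0.09 (1.57-fold, adjusted p = 5.5e-05, edgeR), and it was 0.55 without knockout replicate 1. Cd36, the membrane protein that takes up long-chain fatty acids, did not pass the test. It held 343, 357, 368 and 343 CPM in controls and 405, 304, 338 and 314 CPM in knockouts, and the groups overlapped. The 95% interval of its log2 fold change ran from -0.25 to 0.15. Slc27a1, a fatty acid transport protein with acyl-CoA synthetase activity, fell from 68.1 ± 3.63 to 42.7 ± 8.75 CPM (log2 fold change -0.68, SE 0.11, adjusted p = 0.000235, edgeR). Fabp4, the binding protein of adipocytes and capillary endothelium, stood at 73.8 ± 4.85 CPM in controls and 85.9 ± 21.2 CPM in knockouts (0.22, SE 0.14, adjusted p = 0.227). It passed the threshold at 0.37 when knockout replicate 2, its lowest library at 57.9 CPM, was left out. The adipocyte genes Adipoq, Plin1, Cidec, Lep, Retn and Cfd together held 2 to 11 counts per library, near 0 in both groups. The other 2 genes of the adipocyte list, which other cells express as well, held more. Lipe stood at 21.2 ± 3.76 CPM in controls and 19 ± 2.41 CPM in knockouts and was not called, and Pparg rose from 3.87 ± 0.141 to 5.4 ± 1.22 CPM (0.48, SE 0.16, adjusted p = 0.0212, edgeR). Their part in the level of Fabp4 was not tested. Of 10 endothelial markers 2 rose and 3 fell, near the 26.1% called higher and 23.9% called lower among all genes tested. Their median was -0.08, and their summed level was 471 to 487 CPM in controls and 434 to 483 CPM in knockouts.

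The rise of Fabp3 was read beside a near-identical copy in the genome. Fabp3 lies on chromosome 4 (130308595 to 130315463, plus strand, GRCm38, the build called mm10), and its processed pseudogene Fabp3-ps1 is a single exon on chromosome 10 (86731987 to 86732388, minus strand). Over 402 aligned bases they differ at 3 positions, A40T, C297T and G334A, with the base of Fabp3 written first and positions counted from the start of the copy's sense strand. A stretch of 80 bases that spans the last 2 differences is shown to make visible how alike gene and copy are. Capitals mark the bases that differ, and the sequences are those of the GENCODE transcripts.
Fabp3: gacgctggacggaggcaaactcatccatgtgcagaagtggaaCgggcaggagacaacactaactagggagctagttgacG
Fabp3-ps1: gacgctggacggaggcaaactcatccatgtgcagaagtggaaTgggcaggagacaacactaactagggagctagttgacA
Counts listed under the pseudogene were 5.97 to 7.25 times those listed under Fabp3. Fabp3-ps1 rose from 1230 ± 22.2 to 1717 ± 196 CPM (log2 fold change 0.48, SE 0.10, adjusted p = 0.00104, edgeR), and the sum of gene and copy rose by 0.50 (SE 0.10, adjusted p = 0.000861). Gene and copy thus moved the same way. How many of the pseudogene's counts came from Fabp3 transcripts was not tested, and the level of Fabp3 is uncertain to that extent. A further 19.6% of its exon bases are shared with genes of the other strand.

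Hadhb and Etfa also have copies, which differ in how alike they are to the gene. Hadhb, the beta subunit of the mitochondrial trifunctional protein, differs from the single-exon copy Gm13910 (chromosome 2, 108948806 to 108950233, plus strand) at 3 of 1428 bases, G201A, A393G and G743A. Counts under Gm13910 were 6.09 to 6.95 times those under Hadhb. Hadhb had a log2 fold change of 0.03, its copy -0.03 and their sum -0.02, and none of these passed the test. For Etfa, the alpha subunit of the electron transfer flavoprotein, the copies Gm15285 and Gm15289 held 4.41 to 5.67 times the counts of the gene. These copies are less alike, with 93.4% identity over 486 aligned bases and 95.1% over 244. Identity was 99.3% for Fabp3-ps1 and 99.8% for Gm13910. Both copies fell, by 0.54 and 0.40 on the log2 scale, and the sum of gene and copies fell by 0.48 (SE 0.12, adjusted p = 0.00449, edgeR). Copies of Acaa1a and Eci2 held almost no counts, at most 0.011 times those of the member.

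**Figure D3:**
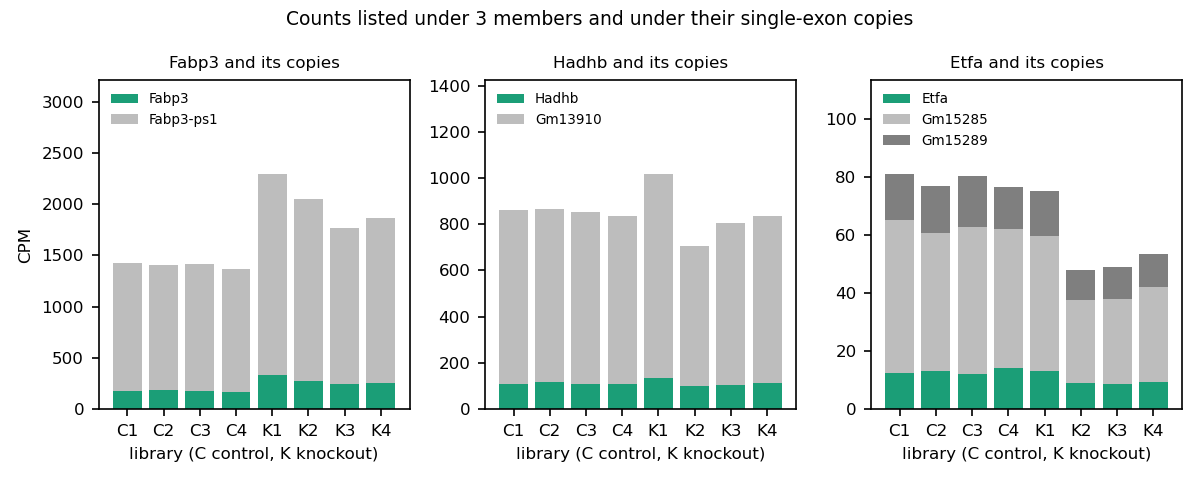
CPM listed under Fabp3, Hadhb and Etfa (green) and under their copies (grey), stacked for each library (C1 to C4 controls, K1 to K4 knockouts). Most of the counts are listed under the copies, at 5.97 to 7.25 times the counts of Fabp3 and 6.09 to 6.95 times those of Hadhb.

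Of the 5 acyl-CoA synthetases, Acsl1, Acsl3 and Acsl6 fell, and Acsl4 and Acsl5 were not called. Acsl1, the acyl-CoA synthetase that feeds oxidation in the heart, stood at 350, 343, 352 and 375 CPM in controls and at 244, 203, 206 and 198 CPM in knockouts. The groups were separated, and knockout replicate 1 was the highest of the 4 knockouts. Acsl1 fell by 0.74 on the log2 scale (SE 0.08, adjusted p = 6.32e-06, edgeR). Acsl6, which is best known from brain and red blood cell precursors, stood at 5.9, 4.77, 4.65 and 3.09 CPM in controls and 1.53, 0.752, 2.28 and 1.73 CPM in knockouts. Per kilobase of exon its mean in controls, 0.464 ± 0.117 CPM per kb, was the lowest of the members. That was within its SD of Acsl3 at 0.523 ± 0.0693, and in CPM Acsl6 (4.6) lay above Acsl3 (2.28). The libraries of Acsl6 did not overlap between groups, and its fall was the largest of the 34 (log2 fold change -1.54, SE 0.27, adjusted p = 0.000306). Erythroid markers, of which none was called, summed to 182 to 457 CPM in controls and 172 to 905 CPM in knockouts. Acsl3, a synthetase of the endoplasmic reticulum and lipid droplets, fell from 2.28 ± 0.302 to 1.34 ± 0.211 CPM (-0.75, SE 0.18, adjusted p = 0.00386). Acsl4, which prefers arachidonic acid, held 8.86 ± 0.844 CPM in controls and 9.13 ± 0.827 CPM in knockouts (0.04, 95% interval -0.18 to 0.26). Acsl5 held 3.87 ± 0.372 and 4.85 ± 0.63 CPM (0.33, SE 0.13), just outside the threshold at an adjusted p of 0.0541. It passed, with log2 fold changes of 0.35 to 0.39, without control replicate 1, knockout replicate 1 or knockout replicate 3.

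The balance within the synthetase family could be read inside each library, free of the scaling. The count ratio of Acsl5 to Acsl1 was 0.011 ± 0.00124 in controls and 0.0231 ± 0.00422 in knockouts, and that of Acsl4 to Acsl1 was 0.0251 ± 0.00249 and 0.0431 ± 0.00342 (SD over 4 libraries a group). For both ratios the exact permutation p was 0.0286 and the adjusted p over 9 ratios 0.0514. Every knockout lay above every control for both ratios. A p of 0.0286 is the smallest that 4 libraries against 4 can give. The ratio of Acsl6 to Acsl1 differed by -0.87 on the log2 scale with overlapping groups (exact permutation p = 0.0857, adjusted p = 0.11), and that of Acsl3 to Acsl1 by -0.02 (exact permutation p = 0.943).

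**Figure D4:**
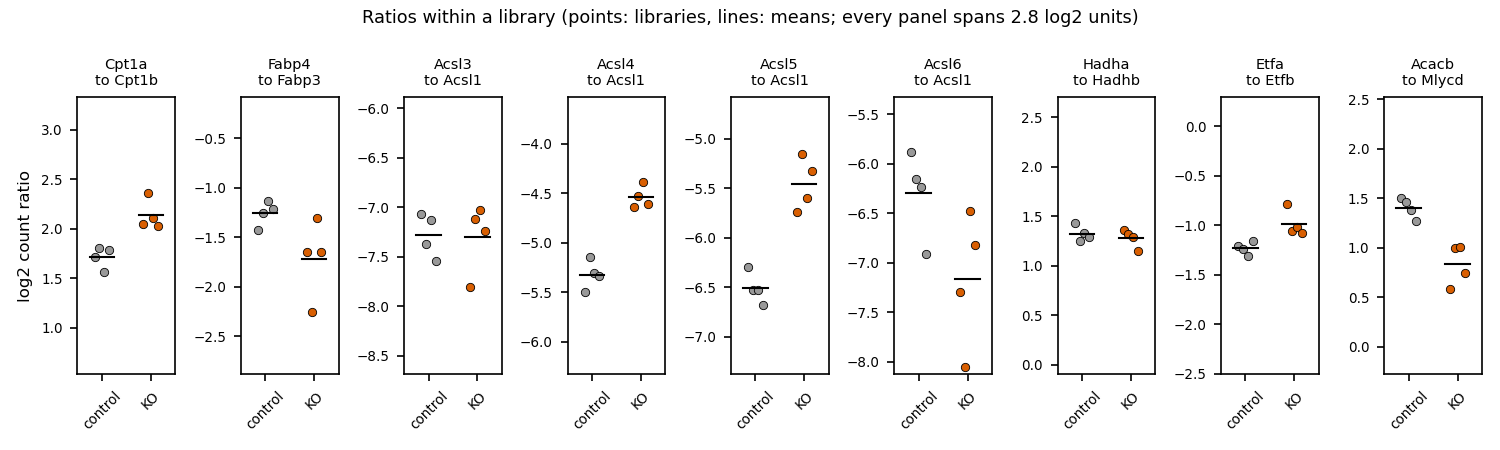
Log2 count ratios of 9 gene pairs in each library, with controls in grey and knockouts (KO) in orange, lines at the group means, and the same span of log2 units in every panel. The groups do not overlap for Cpt1a to Cpt1b, Acsl4 to Acsl1, Acsl5 to Acsl1, Etfa to Etfb and Acacb to Mlycd, and each of these has an adjusted p of 0.0514.

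In the carnitine shuttle Cpt1a rose, Cpt2 and Crat fell, and Cpt1b was not called. Cpt1a, at the outer membrane, stood at 25, 26.8, 26 and 26.9 CPM in controls and at 53.3, 42.5, 38.4 and 35.3 CPM in knockouts. Cpt2, which turns acylcarnitine back into acyl-CoA inside the inner membrane, stood at 105, 105, 107 and 115 CPM in controls and at 50.1, 53.4, 49.1 and 55 CPM in knockouts. Neither gene had overlapping groups, and for Cpt2 knockout replicate 1 lay among the other knockouts. Cpt1a rose by 0.69 on the log2 scale (SE 0.11, 1.62-fold, adjusted p = 0.000125, edgeR), or by 0.56 without knockout replicate 1. Cpt2 fell by 1.06 (SE 0.07, 2.08-fold, adjusted p = 3.55e-08), the smallest p of the 34 genes, and by 1.05 without that library. Crat, carnitine acetyltransferase, fell from 221 ± 7.22 to 150 ± 12.2 CPM (log2 fold change -0.56, SE 0.08, adjusted p = 4.05e-05).

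Cpt1b, the muscle isoform of the entry enzyme, stood at 7.59, 7.65, 8.74 and 7.77 CPM in controls and at 12.8, 8.22, 8.86 and 8.66 CPM in knockouts. Knockout replicate 1 was far above the rest, and the groups overlapped. The difference did not pass the test (0.27, 95% interval -0.02 to 0.57, adjusted p = 0.11, edgeR), and was 0.11 without that library. Of the exon bases of Cpt1b, 81.4% are shared with the annotated readthrough gene Gm44502, which was not analysed here. How reads in these shared bases were counted was not tested, and the level of Cpt1b is uncertain to that extent. Within a library, the count ratio of Cpt1a to Cpt1b, which is not a ratio of levels because lengths differ, was 3.3 ± 0.241 in controls and 4.43 ± 0.501 in knockouts (exact permutation p = 0.0286, adjusted p = 0.0514 over 9 ratios), and the groups did not overlap.

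Cpt1a and Cpt2 moved in opposite directions, and the bases in front of their starts, with those of Acsl6, are shown so that the 3 can be compared. Each run is the part of the window before the start that lies outside annotated exons, and it ends at the first exon that follows, 16, 21 and 26 bases short of the RefSeq start of Cpt1a, Cpt2 and Acsl6. A longer annotated transcript of Cpt1a begins further upstream, so its run is intronic for that transcript. Capitals mark AGGTCA, the motif of nuclear receptors such as the PPAR and RXR proteins, CCAAT, or GGGCGG, the GC box, on either strand, and where such matches meet they run together. Sequences are from RefSeq on GRCm38.p6.
Cpt1a, chr19:3323051-3323284, plus strand: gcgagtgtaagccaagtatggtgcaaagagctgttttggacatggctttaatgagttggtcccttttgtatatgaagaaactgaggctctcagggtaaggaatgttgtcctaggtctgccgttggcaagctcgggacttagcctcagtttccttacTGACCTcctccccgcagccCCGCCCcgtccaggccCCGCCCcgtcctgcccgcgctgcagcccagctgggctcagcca
Cpt2, chr4:107923611-107923839, minus strand: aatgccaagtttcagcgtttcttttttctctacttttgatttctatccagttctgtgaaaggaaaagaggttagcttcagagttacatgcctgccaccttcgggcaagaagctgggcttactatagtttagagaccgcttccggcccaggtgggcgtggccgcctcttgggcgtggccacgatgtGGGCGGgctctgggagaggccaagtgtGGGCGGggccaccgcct
Acsl6, chr11:54303574-54303797, plus strand: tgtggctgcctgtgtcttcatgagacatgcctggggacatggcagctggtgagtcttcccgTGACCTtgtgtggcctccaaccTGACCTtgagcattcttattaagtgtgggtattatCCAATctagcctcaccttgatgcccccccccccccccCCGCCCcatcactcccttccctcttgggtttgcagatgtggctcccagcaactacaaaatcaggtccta
The run of Cpt1a, a gene that rose, and the run of Acsl6, the gene with the largest fall, each hold AGGTCA on the minus strand, and the run of Cpt2 holds GC boxes alone. The RefSeq table has further windows for other starts of Acsl6, whose runs hold no AGGTCA. Of the 34 members, 29 had promoter windows in the RefSeq table, 34 windows in all. AGGTCA on either strand was in 7 of them (20.6%), against 16.3% of all 32851 windows of that kind, and its extended form AAGGTCA in 3 (8.82% against 4.72%), those of Acsl6, Acacb and Acadm. A direct repeat of AGGTCA with 1 base between copies was in none of the members' windows and in 0.0396% of all. CCAAT was in 18 windows (52.9% against 37.4%) and GGGCGG in 24 (70.6% against 35.7%), and TGATGCAA, the core of the ATF4 composite site, was in the window of Echs1 alone (0.895% of all). Genes with AGGTCA in a window included 1 that rose, 4 that fell and 2 that were not called. A match is a run of letters, and binding of any factor was not measured.

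Of the 2 genes of malonyl-CoA control, Acacb fell and Mlycd was not called. Acacb, the carboxylase at the mitochondrial surface that makes the inhibitor of the entry step, stood at 137, 129, 119 and 116 CPM in controls and 92.5, 86.6, 92.4 and 70.9 CPM in knockouts. The groups were separated, with a fall of 0.55 on the log2 scale (SE 0.09, adjusted p = 0.00024, edgeR). Mlycd, the decarboxylase that removes malonyl-CoA, held 47.2 ± 1.15 and 48.4 ± 9.12 CPM (0.03, 95% interval -0.20 to 0.26). The count ratio of Acacb to Mlycd was 2.65 ± 0.188 in controls and 1.79 ± 0.248 in knockouts without overlap (exact permutation p = 0.0286, adjusted p = 0.0514 over 9 ratios).

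In the initial dehydrogenation Acadl rose, Acads, Acadm, Acad10 and Acad11 fell, and Acadvl was not called. Acads, the short-chain dehydrogenase, stood at 55.5, 50.2, 56.9 and 52.8 CPM in controls and 36.2, 29.2, 30.7 and 33.7 CPM in knockouts, and fell by 0.73 on the log2 scale (SE 0.08, adjusted p = 4.82e-06, edgeR). Acadl, the long-chain dehydrogenase, stood at 108, 105, 100 and 97.6 CPM in controls and 157, 118, 125 and 126 CPM in knockouts, all above the controls. It rose by 0.36 (SE 0.09, 1.28-fold, adjusted p = 0.00475), or by 0.26 without knockout replicate 1. Acadvl, the very-long-chain dehydrogenase bound to the inner membrane, held 197 ± 3.64 and 184 ± 16.8 CPM and was not called (-0.10, 95% interval -0.27 to 0.07). It was called lower without knockout replicate 1, at -0.16. In Acadvl 42.9% of exon bases are shared with Dvl2 on the other strand, and the sources used here do not say whether the counting used strand. Acadm, the medium-chain dehydrogenase, fell from 205 ± 11.8 to 156 ± 43.7 CPM (-0.40, SE 0.14), just inside the threshold at an adjusted p of 0.0346. Its call was lost in 6 of the 8 fits that each left out 1 library, at -0.30 to -0.40, with control replicates 1, 2 and 3 and knockout replicates 2, 3 and 4. Without knockout replicate 1, which held 221 CPM against 125 to 142 CPM in the other knockouts, it was -0.61. Acad10 and Acad11, less studied members of the family, fell by 0.66 and 0.56 (SE 0.14 and 0.10, adjusted p = 0.00156 and 0.00048).

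Among the later steps of the spiral Acaa2, Hadh and Echs1 fell, and Hadha, Hadhb and Acaa1a were not called. Hadha and Hadhb, the subunits of the trifunctional protein that handles long chains at the inner membrane, did not pass the test. Hadha held 277 ± 10.1 CPM in controls and 274 ± 45 CPM in knockouts (-0.02, 95% interval -0.24 to 0.20), with 341 CPM in knockout replicate 1 and 248 to 255 CPM in the other knockouts. Hadhb held 111 ± 4.07 and 113 ± 14.7 CPM (0.03, 95% interval -0.17 to 0.22). Without knockout replicate 1 the log2 fold changes were -0.15 for Hadha, just past the threshold with an adjusted p of 0.0498, and -0.07 for Hadhb. The ratio of Hadha to Hadhb was 2.51 ± 0.138 in controls and 2.43 ± 0.154 in knockouts (exact permutation p = 0.486). This pair lies head to head on chromosome 5, Hadha from 30118304 to 30155162 on the minus strand and Hadhb from 30155248 to 30184593 on the plus strand. The 85 bases between the annotated ends are shown as the sequence the pair has in common, with GC boxes in capitals.
Hadha and Hadhb, chr5:30155163-30155247, plus strand: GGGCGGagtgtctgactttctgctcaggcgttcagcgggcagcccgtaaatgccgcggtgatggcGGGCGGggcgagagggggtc
Acaa2, the thiolase of the matrix, stood at 153, 143, 145 and 144 CPM in controls and 82.1, 51.7, 51.6 and 55.1 CPM in knockouts. All knockouts were below all controls, and knockout replicate 1 was the highest of them. Acaa2 fell by 1.28 on the log2 scale (SE 0.13, 2.44-fold, adjusted p = 1.9e-06, edgeR), or by 1.48 without that library. Hadh, the hydroxyacyl-CoA dehydrogenase for shorter chains, fell from 148 ± 6.64 to 80.2 ± 15.7 CPM (-0.89, SE 0.11, adjusted p = 1.95e-05). Echs1, the hydratase for shorter chains, fell from 57.9 ± 1.1 to 43.4 ± 9.28 CPM (-0.42, SE 0.12, adjusted p = 0.00817), with 57 CPM in knockout replicate 1 and therefore overlapping groups. Acaa1a, the thiolase of peroxisomes, held 15.6 ± 1.13 and 15.2 ± 0.99 CPM (-0.04, 95% interval -0.22 to 0.14).

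Of the auxiliary enzymes, which move or remove the double bonds of unsaturated chains, Ech1, Eci1 and Decr1 fell and Eci2 was not called. Ech1, the dienoyl-CoA isomerase, stood at 242, 229, 234 and 222 CPM in controls and 143, 92.2, 90.4 and 90.1 CPM in knockouts. The groups were well separated, and knockout replicate 1 again stood between the controls and the other knockouts. Ech1 fell by 1.16 on the log2 scale (SE 0.13, 2.23-fold, adjusted p = 6.21e-06, edgeR), or by 1.35 without that library. Eci1, the mitochondrial enoyl-CoA isomerase, fell from 37.9 ± 3.31 to 21.5 ± 4.54 CPM (-0.82, SE 0.12, adjusted p = 7.19e-05). Decr1, the mitochondrial dienoyl-CoA reductase, fell from 100 ± 1.68 to 76.5 ± 11.8 CPM (-0.39, SE 0.10, adjusted p = 0.00354). Eci2, an isomerase found in peroxisomes as well, held 26.9 ± 1.3 and 28.3 ± 3.32 CPM (0.07, 95% interval -0.12 to 0.25).

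All 3 genes that carry electrons away from the acyl-CoA dehydrogenases fell. Etfb, the beta subunit of the electron transfer flavoprotein, stood at 28.9, 30.7, 29.9 and 31.2 CPM in controls and 22.5, 18.5, 17.6 and 20 CPM in knockouts, without overlap. It fell by 0.62 on the log2 scale (SE 0.08, adjusted p = 2.68e-05, edgeR). Its exons share 53.0% of their bases with Gm45233 on the same strand, for which 0 counts were listed in every library. How reads in the shared bases were counted was not tested. The level of Etfb, and the ratio of Etfa to Etfb below, are uncertain to that extent. Etfdh, the oxidoreductase that passes the electrons on to ubiquinone, fell from 134 ± 5.37 to 93.3 ± 14.2 CPM (-0.53, SE 0.10, adjusted p = 0.00042). Etfa fell from 12.9 ± 0.833 to 10 ± 2.05 CPM (-0.37, SE 0.12, adjusted p = 0.0231), with 13 CPM in knockout replicate 1. Its call was lost, at -0.30 to -0.34, without control replicate 4 or knockout replicate 2, 3 or 4. The count ratio of Etfa to Etfb was 0.426 ± 0.019 in controls and 0.507 ± 0.0496 in knockouts without overlap (exact permutation p = 0.0286, adjusted p = 0.0514 over 9 ratios). With the copies of Etfa summed in, the difference of that ratio went from 0.25 to 0.12 on the log2 scale.

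**Figure D5:**
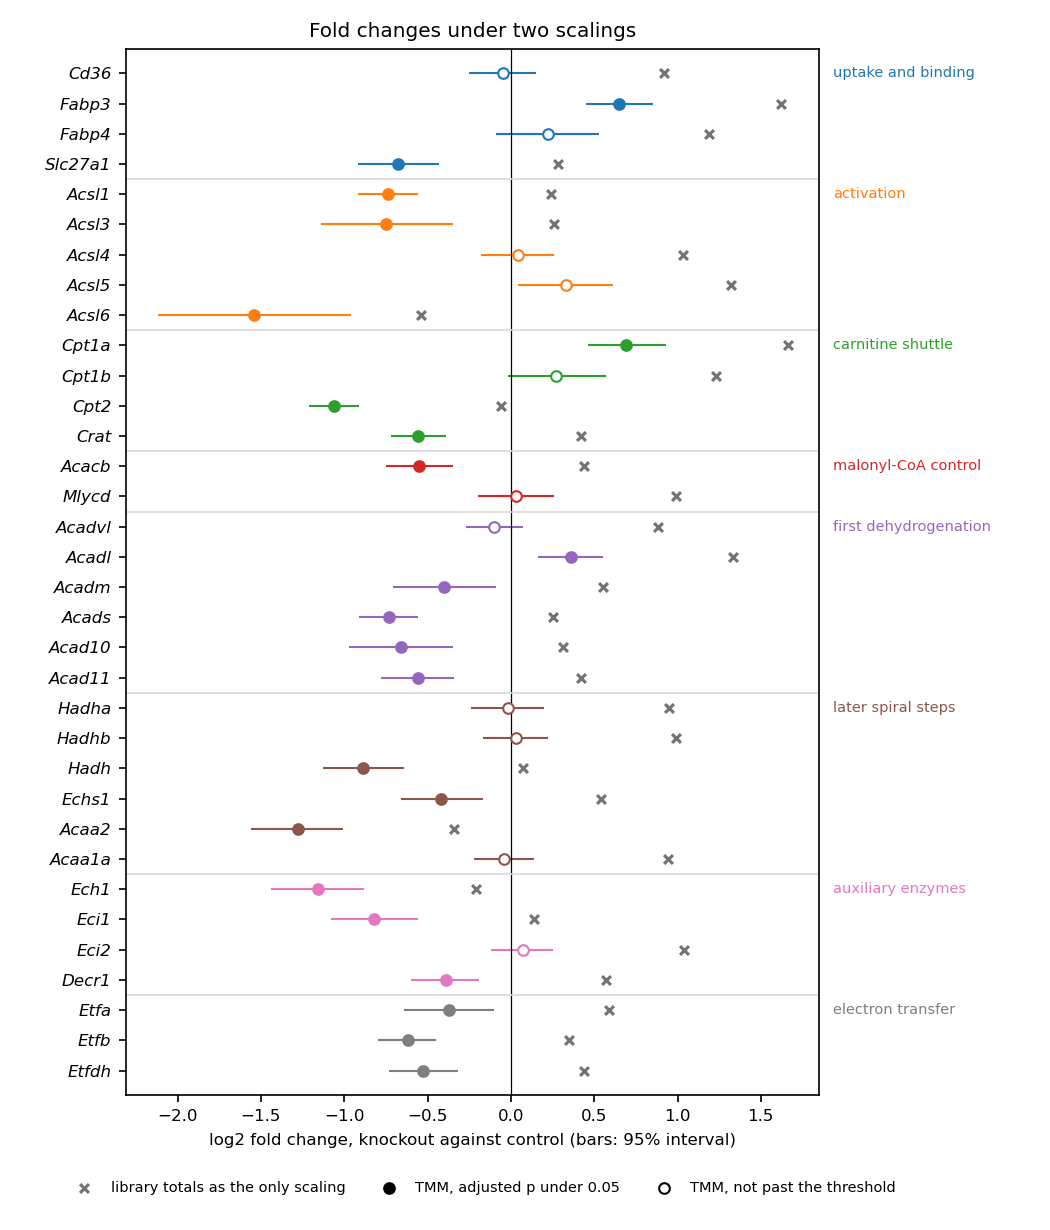
Log2 fold change of each member, knockout against control, with its 95% interval (circles, filled where the adjusted p is under 0.05) and the log2 fold change with library totals as the only scaling (crosses), grouped by role. Fabp3 at 0.65, Cpt1a at 0.69 and Acadl at 0.36 are the filled circles to the right of 0, and the crosses lie to the right of the circles for every gene.

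Per kilobase of exon in controls, with counts listed under the genes themselves and not under copies, Fabp3 had the highest level at 214 ± 7.03 CPM per kb, followed by Ech1 at 101 ± 3.52, Cd36 at 98.3 ± 3.38, Acaa2 at 96.5 ± 3.17 and Acadvl at 73.5 ± 1.35 CPM per kb (SD, n = 4). In knockouts the levels were 336 for Fabp3, 94.8 for Cd36, 68.5 for Acadvl, 65.6 for Acadl, 45.5 for Ech1 and 39.7 CPM per kb for Acaa2. Ech1 and Acaa2, which stood beside Cd36 in controls, stood below Acadl in knockouts. In controls Ech1 and Cd36, and Cd36 and Acaa2, were closer than their SDs. This order leaves out the counts under the copies of Fabp3, Hadhb and Etfa, with which their levels would be several times higher. The level of Acadvl carries the shared exons named above. Exon length here is the union of all annotated exons of a gene, so the order also depends on the annotation. For Fabp4 that union is 4489 bases, its whole annotated span, and its 73.8 CPM in controls became 16.5 CPM per kb.

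Other genes of the pathway, from a list of 43 that holds none of the members, had called members in both directions. Of the 40 tested, 12 rose and 16 fell, with a median of 0.04, where 26.1% of all genes tested were called higher and 23.9% lower. The smallest p-values belonged to Acaca, the carboxylase that makes malonyl-CoA for fatty acid synthesis, which rose from 6.04 ± 0.252 to 18.2 ± 3.03 CPM (log2 fold change 1.59, SE 0.12, adjusted p = 1.39e-07, edgeR), and to Prkab2, a subunit of the AMP-activated kinase that inhibits both carboxylases, which rose from 37.8 ± 2.1 to 104 ± 19.6 CPM (1.47, SE 0.11). Acaca thus rose where its mitochondrial counterpart Acacb fell. Next came Scp2, a peroxisomal thiolase and sterol carrier (-0.75, SE 0.07), Rxra, the partner of the PPAR receptors (-0.70, SE 0.07), Acsf2, an acyl-CoA synthetase (1.03, SE 0.13), and Acox3, a peroxisomal acyl-CoA oxidase (0.61, SE 0.08). By list, supply and uptake had 2 higher and 3 lower of 7 tested, the other shuttle and matrix genes 3 and 2 of 8, peroxisomal genes 3 and 6 of 13, malonyl-CoA and AMPK genes 3 and 0 of 4, and regulators with their known targets 1 and 5 of 8. These lists are short, and several of their counts are near the shares called among all genes. Further genes are named after their values had been seen. Slc25a20, the carnitine-acylcarnitine carrier between both palmitoyltransferases, held 50.5 ± 1.26 and 43.1 ± 7.74 CPM and did not pass (-0.23, SE 0.10, adjusted p = 0.0776). Lpl, the lipase that frees fatty acids from lipoproteins, fell by 1.10 (SE 0.21), and Ppara, the receptor that drives genes of fatty acid oxidation, fell by 0.91 (SE 0.16). Pdk4, a kinase that restrains glucose oxidation, rose by 1.20 (SE 0.19).

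Markers of heart cell types are set here against the same shares, 26.1% higher and 23.9% lower among all genes tested. Of 10 cardiomyocyte markers 7 fell and 1, Mybpc3, rose, with a median of -0.66, and their summed level was 19406 to 20507 CPM in controls and 9529 to 15362 CPM in knockouts. The smallest p-values were those of Ryr2, the calcium release channel, which fell from 1182 ± 25 to 348 ± 89.4 CPM, and Tnni3, cardiac troponin I, which fell from 388 ± 5.16 to 194 ± 38.8 CPM. Of 8 macrophage markers 4 fell, of 6 fibroblast markers 2 rose, of 6 smooth muscle and pericyte markers 1 rose and 1 fell, and of 5 erythroid markers none was called. Cardiomyocyte markers had the highest summed level of these lists in every library. The part of these shifts in the members' values was not tested.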

How the data were processed

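RNA of crude heart mitochondria had been extracted with a miRNeasy kit, made into TruSeq libraries and sequenced from paired ends on a MiSeq, per the labels' protocols. The deposited raw counts are whole numbers per gene. The submitters' processing notes name the build mm10 and, without their roles, featureCounts, DESeq2 1.14.1, R 3.3.2, SAMtools 1.3.1, Bowtie2 and bedtools. The authors' deposited table gives log2 fold changes with their log2 standard errors, and adjusted p-values, as the authors computed them, and was used for a comparison of calls alone.

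Counts were tested on the whole table with edgeR 4.0.16 in R 4.3.3 (two-sided quasi-likelihood F test on genotype, TMM, filterByExpr at a minimum count of 10). Calls used a Benjamini-Hochberg adjusted p of 0.05 over 17891 genes. An SE is the log2 fold change divided by the square root of F. The biological coefficient of variation was 11.3%. The fit was tested on simulated counts that gave both groups the mean gene proportions of the controls, apart from a set of changed genes. That simulation does not cover the shift in mitochondrial RNA share between the groups. Ratios of counts, with 0.5 added to each, went through an exact two-sided permutation test of the 70 relabelings (scipy 1.17.1), adjusted over 9 ratios. Replicates are mice and differed by more than counting noise (chi-square per degree of freedom of at least 2.56), so none was counted as a duplicate. Positions and exon lengths are from GENCODE M21, by gene identifier, and 27 of 34 members matched in version as well. Copies were sought with BLAST 2.17.0 as transcripts of at least 90% identity over 200 bases and 80% of the copy. Figures were drawn with matplotlib 3.10.9.

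The members, roles and lists were chosen with earlier results of these data known. All members are named. Values of every library are given for members changed at least 2-fold, for the smallest p of each role, and for the members that a paragraph turns on. From the wider list, up to 6 called genes by smallest p are named. Alternatives were RLE factors, library totals, no filter, DESeq2 1.42.0, nuclear genes alone, a replicate block, each library left out, 5 added to counts in ratios and, chosen after seeing the data, members summed with their copies.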

Additional observations from a re-analysis of the deposited data

Results flagged for a closer look

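In 9 of 70 sets of a gene's 4 libraries in a group, 1 library lay so far from the other 3 that its gap to the nearest, divided by the range of the 4, was above Dixon's 95% critical value. Chance flags about 1 in 20 such sets on average. The sets come from the same 8 libraries and are not independent, so 9 of 70 cannot be weighed against that rate. Of the 9, 7 concern knockout replicate 1, the library with the mitochondrial RNA share nearest the controls. In it Acsl1 stood at 244 CPM against 198 to 206 CPM in the other knockouts, Hadha at 341 against 248 to 255, Acaa2 at 82.1 against 51.6 to 55.1, and Ech1 at 143 against 90.1 to 92.2. Eci1 stood there at 28.3 CPM against 18.9 to 19.8, Etfdh at 114 against 84.2 to 88.1, and Cpt1b at 12.8 against 8.22 to 8.86. Among controls, Acsl5 stood at 4.43 CPM in replicate 1 against 3.64 to 3.76, and Cpt1b at 8.74 CPM in replicate 3 against 7.59 to 7.77.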

How the results depend on the processing

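Relative to other nuclear transcripts, RLE factors, nuclear genes alone, DESeq2 and the replicate block left all 34 calls as they were. Deviations of same-numbered libraries from their group means correlated at 0.00732, -0.0136, 0.0234 and 0.0497. With so few libraries this cannot exclude a factor shared by replicate number. With the replicate block 3 members were higher and 20 lower. With library totals as the only scaling, 23 members were higher and 1 was lower, the median was 0.54, the wider list had 28 higher and 0 lower, and Tefm was called at 1.13. Under that scaling these members turned positive: Cd36 0.92, Slc27a1 0.28, Acsl1 0.24, Acsl3 0.26, Crat 0.42, Acacb 0.44, Acadvl 0.88, Acadm 0.55, Acads 0.25, Acad10 0.31, Acad11 0.42, Hadha 0.95, Hadh 0.07, Echs1 0.54, Acaa1a 0.94, Eci1 0.14, Decr1 0.57, Etfa 0.59, Etfb 0.35 and Etfdh 0.44, while Acsl6 (-0.54), Cpt2 (-0.06) and Ech1 (-0.21) lost their calls. With no filter 5 members were higher, since Acsl5 (0.37) and Cpt1b (0.32) were gained. Other changes of sign were in members that were not called: Hadha at 0.03 with no filter, 0.00 with DESeq2 and 0.01, 0.03, 0.02 and 0.02 without control replicate 1 or knockout replicate 2, 3 or 4, Acaa1a at 0.01 with no filter, Cd36 at 0.00 without knockout replicate 2, Acsl4 at -0.02 without control replicate 1, and Mlycd at -0.11, Hadhb at -0.07 and Eci2 at -0.02 without knockout replicate 1. With copies summed, Hadhb was at -0.02 and the ratio of Hadha to Hadhb at 0.01. Over the fits that each left out 1 library, Cd36 ran from -0.15 to 0.00, Acsl4 from -0.02 to 0.10, Mlycd from -0.11 to 0.10, Hadha from -0.15 to 0.03, Hadhb from -0.07 to 0.08 and Eci2 from -0.02 to 0.12. Leaving out each library in turn gave 3 to 4 members higher, 18 to 22 lower, a median of -0.59 to -0.36, 11 to 13 higher and 15 to 18 lower in the wider list, and 0.08 to 0.21 for Tefm. The ratio of Acsl3 to Acsl1 ran from -0.11 to 0.15, with 0.05, 0.03 and 0.15 without control replicate 1, control replicate 3 and knockout replicate 1. The cause of these shifts was not tested. Depth limits Acsl6 and Acsl3, the members with the lowest counts in knockouts.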
